A study of Mus musculus with 2 samples.

Results

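The collagen genes were followed through single cells of the newborn mouse eye cup with and without the transcription factor gene Myrf. Members were all rows of the gene table whose symbol reads Col, a number, a and a number. One further gene that matches this pattern is not reported here. The 43 genes that remain are 43 of the 31053 genes counted, and 37 of them reached a level of 20 CPM (counts scaled to the same total in every class) in at least 1 class of 50 or more cells. Eye cups were taken at postnatal day 0 and pooled, 3 to a library. The control library came from Myrf fl/fl mice and the mutant library from Rx>cre Myrf fl/fl mice, so the floxed Myrf alleles were present in both and only the mutant carried the cre. Rx>cre acts early in the cells that give rise to neural retina and retinal pigment epithelium (RPE), and not in the mesenchyme, vessels or surface epithelium around them. By the study's methods the cornea, lens and optic nerve were taken off before the tissue was digested with papain. With 1 library per genotype there was no replicate and no test was possible: values are given for each library, and each 95% interval covers counting error alone.

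Collagens are proteins of 3 chains wound into a helix. Fibril-forming types I, III, V and XI make the cables of sclera, choroid and cornea, and types II and IX make the finer fibrils of the vitreous and of cartilage. Type IV makes the sheet of every basement membrane, such as the one between RPE and choroid, and types XV and XVIII sit at its edge. Other members anchor epithelia, bead along fibrils, associate with fibril surfaces or span the cell membrane. Mesenchymal cells are the main makers of the fibrils, whereas epithelia and endothelia make their own basement membranes.

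The libraries held 14305 control and 12222 mutant cell barcodes, with medians of 4201 and 4952 unique molecular identifiers (UMIs, each 1 captured RNA molecule), and 12485 and 10813 cells were kept. There were 59 barcodes found in both libraries. The 68 lens-like cells were all from the control, as were nearly all of an unnamed cluster led by Dkk2 and Fmod, 4.68% of control and 0.222% of mutant cells, with 3.98% and 0.130% of the collagen of their libraries. The cells formed 37 clusters, of which 11 stayed unnamed and the rest fell into 16 classes named from marker genes, with the collagen genes kept out of the clustering. Myrf itself stood at 232 CPM in RPE-like cells of the control library and at 27.0 CPM in those of the mutant, a log2 ratio of -3.05 (95% interval -3.49 to -2.73). The pools differed in sex makeup, since 7.14% of control and 70.5% of mutant cells carried Xist without Y-linked transcripts and 51.3% and 14.0% carried the reverse. Sex makeup and genotype cannot be told apart at the level of the library, and values by kind of cell are given beside several results.

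Collagen took 1.86% of all UMIs of control cells and 1.35% of those of mutant cells. The share differed widely between classes. The mesenchyme-like class, 681 control and 394 mutant cells, gave 7.06% and 8.58% of its UMIs to the 43 genes and held 39.9% and 49.8% of the collagen in its library. An unnamed cluster led by the cartilage matrix genes Acan and Chad gave 12.3% and 12.7%. Pericyte-like cells stood at 1.11% and 1.02%, and endothelial-like cells at 0.622% and 0.532%. In these classes the libraries were close. The mutant was lower in several others. RPE-like cells stood at 0.676% and 0.241%, surface epithelium-like cells at 0.574% and 0.108%, the neural retina classes at 0.236% and 0.0900% and red blood-like cells at 0.132% and 0.0174%. The summed log2 ratio of mutant over control was -1.49 (-1.53 to -1.44) in RPE-like cells, -2.41 (-2.51 to -2.31) in surface epithelium-like cells and -1.39 (-1.41 to -1.37) in the neural retina. With doublets kept the value in surface epithelium-like cells was -0.54, and in cells with Xist alone it was -3.83. In RPE-like cells it was -2.51 with barcodes over 2000 UMIs left out. All levels below are CPM of a class, from 3′ counts that read a single end of each transcript and so do not scale with its length.

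**Figure D1:**
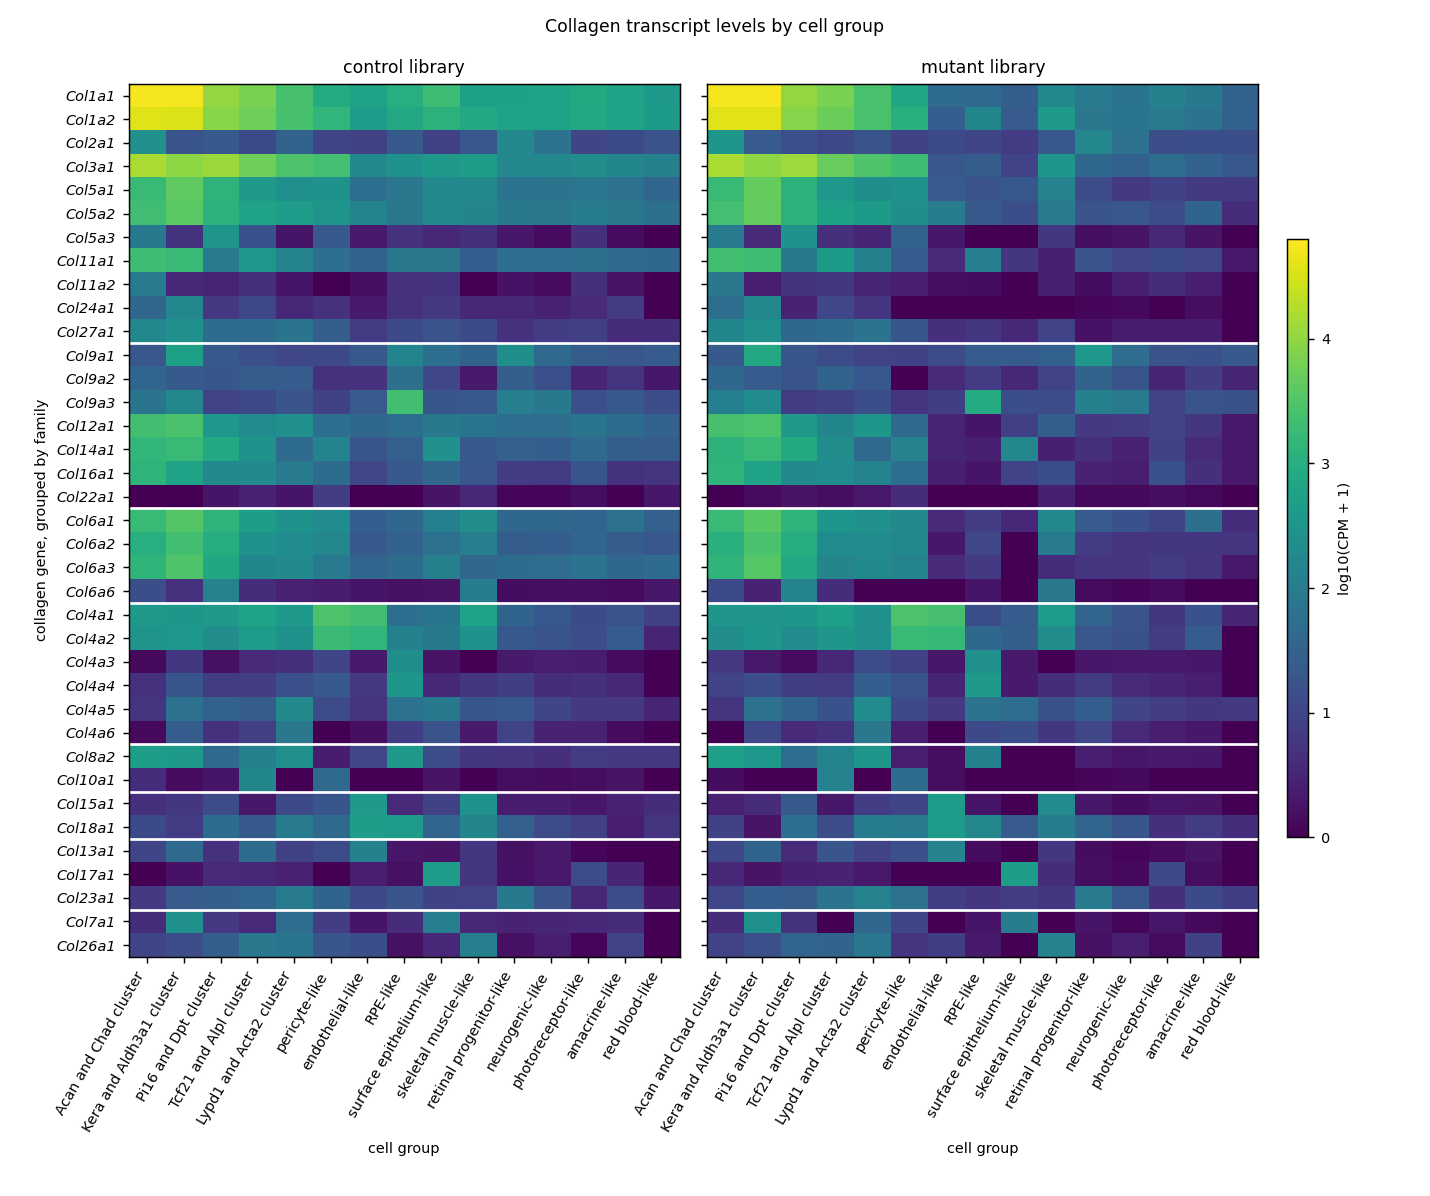
Level of the 37 genes that reached 20 CPM in each cell group, as log10 of CPM with 1 added, in the control and the mutant library, with genes ordered by family. Fibril-forming genes are brightest in the mesenchymal columns, Col4a1 and Col4a2 in the vessel columns and Col9a3 in the RPE column, and Col1a1, Col1a2 and Col3a1 show a band across the remaining control columns that is darker in the mutant.

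Type I and type III collagen, the bulk of connective tissue fibrils, led the mesenchyme-like cells. These cells were of 2 kinds. The cluster led by Pi16 and Dpt, genes of connective tissue fibroblasts, held 495 control and 218 mutant cells. The cluster led by Kera, which encodes a proteoglycan of the corneal stroma, and Aldh3a1 held 186 and 176 cells. From here on, paired values give the control first and the mutant second. Col1a1 stood at 53013 and 53522 CPM in the Kera and Aldh3a1 cluster, and at 10722 and 10328 CPM in the Pi16 and Dpt cluster. Col1a2 followed, with 35188 and 38494 CPM against 8669 and 8621 CPM. Col3a1 reversed the order, at 9821 and 9689 CPM in the Kera and Aldh3a1 cluster and 11910 and 12665 CPM in the Pi16 and Dpt cluster. Type I therefore separated these clusters within each library far more than the genotypes did, and type III was nearly level.

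The minor fibril genes kept the same division between the clusters. Col5a1, whose chain starts fibrils and limits their width, stood at 4271 and 4725 CPM in the Kera and Aldh3a1 cluster against 1300 and 1239 CPM in the Pi16 and Dpt cluster. Col12a1 and Col14a1, which bind fibril surfaces, stood in the first cluster at 2608 and 2763 CPM and at 1694 and 1804 CPM, and in the second at 362 and 380 CPM and at 798 and 819 CPM. Much the same held for Col6a3, the long chain of the beaded filaments, which stood at 3056 and 3389 CPM against 727 and 787 CPM. The contrast was wider for Col7a1, the anchoring fibril gene, at 271 and 251 CPM against 5.24 and 4.01 CPM, and for the minor fibril gene Col24a1, at 167 and 165 CPM against 5.24 and 2.00 CPM. Its relative Col27a1 was at 262 and 256 CPM in the Kera and Aldh3a1 cluster. Col5a3 marked the other cluster, with 299 and 283 CPM in the Pi16 and Dpt cells against 4.14 and 2.75 CPM, as did Col6a6 with 132 and 137 CPM against 3.76 and 1.96 CPM. Cells of the Acan and Chad cluster held Col16a1 at 1301 and 1324 CPM, Col11a1 at 2026 and 2215 CPM and Col8a2, a gene of hexagonal networks, at 490 and 511 CPM. The Tcf21 and Alpl cluster, also unnamed, had the highest Col10a1, the gene of hypertrophic cartilage, at 160 and 131 CPM, followed by pericyte-like cells at 45.5 and 48.9 CPM.

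Between genotypes the mesenchymal collagens moved little. Of 36 members measured in the mesenchyme-like class, meaning with 20 or more UMIs in both libraries together, 1 was at least 2-fold lower in the mutant, against 0.734% of all genes measured there, and 0 were at least 2-fold higher, against 0.350%. The lower one was Col25a1, a membrane collagen, at 9.81 and 4.36 CPM. The summed collagen ratio was 0.28 on the log2 scale (0.27 to 0.29) over the class, but 0.01 in the Pi16 and Dpt cluster and 0.07 in the Kera and Aldh3a1 cluster. In the Pi16 and Dpt cluster 1 of 34 members was at least 2-fold lower, Col24a1 on 24 and 5 UMIs, against 1.42% of genes, and 0 were higher, against 0.407%. In the Kera and Aldh3a1 cluster 2 of 30 were lower, against 0.927%, and 0 higher, against 1.09%. They were Col25a1 and the basement membrane gene Col4a6, at 24.1 and 9.81 CPM. The makeup of the class differed between libraries, with 186 and 176 cells in the richer cluster and 495 and 218 in the other, and its part in the values over the class was not tested. Col11a1 stood at 720 and 1079 CPM over the class and at 1786 and 2050 CPM within the Kera and Aldh3a1 cluster. Col5a3 stood at 191 and 141 CPM over the class. The type IX genes Col9a1 and Col9a3, which coat type II fibrils, stood at 209 and 400 CPM and at 66.3 and 113 CPM over the class, log2 ratios of 0.93 (0.84 to 1.03) and 0.76 (0.59 to 0.95). Within the Kera and Aldh3a1 cluster they stood at 535 and 774 CPM and at 166 and 218 CPM, with log2 ratios of 0.53 (0.43 to 0.63) and 0.39 (0.21 to 0.58). Thinned to 1000 UMIs per cell the ratios were 0.30 for Col9a1 and -0.19 for Col9a3. The thinned Col9a3 value rests on few UMIs, which were found in 31 of 186 control cells. Their partner Col9a2 was level over the class, at 19.5 and 20.2 CPM.

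Members were compared in the same way in 3 of the unnamed clusters. Others differed more, such as the cluster led by Dkk2 and Fmod, with 3.80% and 2.00% of its UMIs in collagen, and a shallow cluster led by Gm26870, with 0.668% and 0.262%. In the Acan and Chad cluster 0 of 31 members were at least 2-fold lower and 1, Col4a4 on 12 and 20 UMIs, was higher, each against 0.945% of genes. The Lypd1 and Acta2 cluster had 0 of 27 lower, against 2.05%, and 1 higher, against 2.03%, Col25a1 on 7 and 13 UMIs. The Tcf21 and Alpl cluster had 3 of 32 lower, against 1.35%, and 0 higher, against 1.14%. These were Col26a1, at 77.4 and 33.4 CPM, Col13a1, at 49.3 and 17.5 CPM, and Col5a3, on 56 and 7 UMIs.

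The same fibril genes appeared in cells that are not known to make them, and there the libraries parted. RNA that leaks from broken cells can enter any droplet, and its part in the levels of neural and blood cells was not tested. Over the neural retina classes Col1a1 stood at 610 CPM in the control library but 95.4 CPM in the mutant, Col1a2 at 614 and 77.8 CPM and Col3a1 at 176 and 38.8 CPM. Red blood-like cells held 403 and 33.3 CPM of Col1a1 and 126 and 18.9 CPM of Col3a1, and 11 of their 14 measured members were at least 2-fold lower in the mutant, against 2.59% of genes, with 0 higher against 9.10%. Counted per cell, Col1a1 was almost flat over control red blood-like and neural cells, though higher in control RPE-like cells, as given below. It came to 2.67 UMIs in red blood-like cells, and to 2.90 in amacrine-like, 2.82 in photoreceptor-like, 2.83 in neurogenic-like and 2.82 in progenitor-like cells. In the mutant the same classes, in that order, held 0.345, 0.478, 0.468, 0.352 and 0.518 UMIs. A Col1a1 UMI was found in 88.8% of control and 28.3% of mutant neural cells, at median depths of 4228 and 4541 UMIs, and in 87.2% and 27.6% of red blood-like cells. After each cell was thinned to 1000 UMIs the shares were 44.7% and 8.15% in neural cells and 36.3% and 8.43% in red blood-like cells. Neural and blood cells were thus low together in the mutant, whereas cells rich in type I collagen held 758 and 775 UMIs of Col1a1 per cell in the Kera and Aldh3a1 cluster and 764 and 731 in the Acan and Chad cluster.

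**Figure D2:**
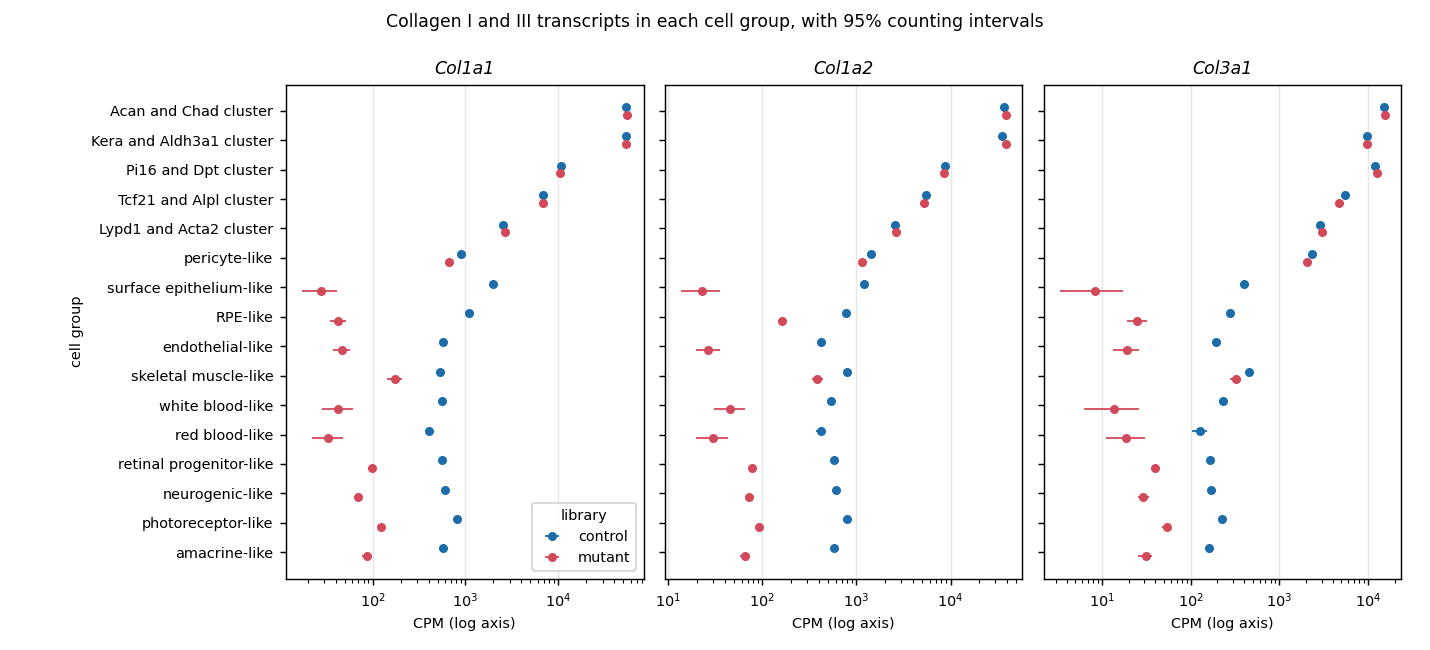
CPM of Col1a1, Col1a2 and Col3a1 in each cell group on log axes, with 1 point for the control and 1 for the mutant library and bars for the 95% counting interval. The libraries lie close from the Acan and Chad cluster to the pericyte-like cells, and from there down the mutant lies below the control, for Col1a1 at 95.4 against 610 CPM over the neural retina classes.

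The collagen RNA of neural cells was set beside that of several collagen-rich groups by the ratio of chains. In control neural cells Col1a1 stood to Col1a2 at 0.993 and to Col3a1 at 3.47. The Kera and Aldh3a1 cluster had 1.51 and 5.40, the Acan and Chad cluster 1.45 and 3.52, and the Pi16 and Dpt cluster 1.24 and 0.900. The Dkk2 and Fmod cluster had 2.05 and 4.59 and cartilage or tendon-like cells 1.40 and 2.85. The Tcf21 and Alpl cluster had 1.23 and 1.23, the Lypd1 and Acta2 cluster 0.986 and 0.864 and pericyte-like cells 0.629 and 0.376. Mutant neural cells had 1.23 Col1a1 per Col1a2 and 2.46 Col1a1 per Col3a1, so the ratios as well as the amount differed between libraries.

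The members of each class were then read as a level at least 4-fold above the neural retina of the same library. The mesenchyme-like cells passed for 24 of 36 members in the control, against 8.94% of all genes measured, and for 23 of 36 in the mutant, against 8.48%. With barcodes over 2000 UMIs left out the counts were 12 and 5. The members measured and the share of all genes at that setting are not given here, so the fall is not read as a lost level. Of the fibril-forming family, the 24 and the 23 both included Col1a1, Col1a2, Col3a1, Col5a1, Col5a2, Col5a3, Col11a1, Col24a1 and Col27a1. Both also included the beaded filament genes Col6a1, Col6a2, Col6a3 and Col6a6, and Col4a1 and Col4a2. Pericyte-like cells passed for 15 of 35 members against 7.84% and for 20 of 35 against 7.64%. The 20 took in Col1a1, Col1a2, Col5a2, Col6a3 and Col12a1, which in the control stood less than 4-fold above the neural retina, as Col1a1 did with 890 against 610 CPM. Endothelial-like cells passed for 6 of 34 members in each library, against 8.80% and 8.61%. RPE-like cells passed for 7 of 35 against 8.03% and 6 of 33 against 7.14%, and surface epithelium-like cells for 6 of 33 against 6.87% and 3 of 33 against 6.42%.

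Vessels carried the basement membrane genes. Col4a1 and Col4a2, which encode the chains of the general type IV sheet, stood in pericyte-like cells at 2908 and 2823 CPM and at 1859 and 1828 CPM. In endothelial-like cells they stood at 2091 and 2372 CPM and at 1450 and 1663 CPM, with log2 ratios of 0.18 (0.13 to 0.24) and 0.20 (0.13 to 0.26). Neural cells held Col4a1 at 26.1 and 25.3 CPM. Endothelial-like cells added Col18a1, which yields endostatin, at 483 and 426 CPM, and its relative Col15a1 at 386 and 424 CPM. The membrane-spanning Col13a1 stood at 127 and 133 CPM. The log2 ratio of Col18a1 was -0.18, with -0.34 in cells with Xist alone and 0.013 in cells with Y-linked transcripts alone. These 5 genes were within 0.20 of equal levels on the log2 scale. Of 27 members measured in endothelial-like cells, 14 were at least 2-fold lower in the mutant, against 3.39% of genes. Of the 14, 10 were also lower in the neural retina, where 13 of 38 members were so against 0.694%. The same overlap over all genes is not given here. Of 19 marker lists of other cell types, 17 were lower in the mutant endothelial-like cells, such as red blood at 3896 and 912 CPM and mesenchyme at 301 and 113 CPM. The other 2 were higher, ganglion at 372 and 411 CPM and melanocyte at 239 and 295 CPM. The part of free RNA in these lower levels was not tested. One of 27 was higher, against 0.577%: Col28a1, on 6 and 14 UMIs. Over 21 members in pericyte-like cells 1 was lower, against 2.35%, and 1 was higher, against 2.43%. These were Col11a1 at 54.6 and 24.4 CPM, on 42 and 16 UMIs, and Col18a1 at 44.2 and 90.1 CPM, on 34 and 59 UMIs. The Col11a1 ratio was 0.064 at a clustering resolution of 0.5, which reverses it. With the photoreceptor-like level subtracted, nothing of Col11a1 was left in the control. The value of 3.87 so obtained rests on the 1 CPM added and is not a measured ratio.

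The 6 type IV genes lie as pairs that are read in opposite directions from neighbouring starts. By the transcript ends that the gene annotation gives, Col4a1 and Col4a2 overlap, with starts 21 bases apart, Col4a4 and Col4a3 start 72 bases apart, and Col4a6 and Col4a5 start 1309 bases apart. The windows from 250 bases before to 50 bases after the start of Col4a1 and of Col4a4 take in the start of the partner gene, and are shown because the partners' levels are compared across cells below. They are RefSeq sequences of build GRCm38.p6, on the minus strand at chr8:11312777-11313076 and chr1:82586800-82587099, read 5′ to 3′ with the motifs CCAAT and GGGCGG in capitals on either strand.
Col4a1: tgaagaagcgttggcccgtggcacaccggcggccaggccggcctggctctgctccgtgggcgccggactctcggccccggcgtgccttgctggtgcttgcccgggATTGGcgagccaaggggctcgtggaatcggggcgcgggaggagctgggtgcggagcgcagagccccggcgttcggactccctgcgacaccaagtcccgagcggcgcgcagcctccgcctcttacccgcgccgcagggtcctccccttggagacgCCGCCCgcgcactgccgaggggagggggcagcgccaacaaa
Col4a4: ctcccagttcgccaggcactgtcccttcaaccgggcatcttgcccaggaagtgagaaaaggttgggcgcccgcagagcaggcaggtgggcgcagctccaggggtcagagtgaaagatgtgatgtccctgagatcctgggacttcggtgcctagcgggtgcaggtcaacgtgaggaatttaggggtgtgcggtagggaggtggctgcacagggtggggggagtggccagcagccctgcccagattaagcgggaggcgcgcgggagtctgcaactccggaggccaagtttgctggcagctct
The window of Col4a1 holds 1 CCAAT and 1 GGGCGG, both on the opposite strand, and that of Col4a4 holds neither. Of 37 windows for the 34 members that matched RefSeq, 13 held CCAAT and 22 held GGGCGG, against 37.4% and 35.7% of 32851 windows of all genes. A match describes letters and not a bound site.

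Each pair had the same leading class for both partners. Col4a1 and Col4a2 were highest together in pericyte-like and endothelial-like cells. Col4a3 and Col4a4, chains of the specialised sheet found in kidney and eye, were highest together in RPE-like cells, at 241 and 251 CPM and at 328 and 397 CPM, against 1.25 and 1.04 CPM and 5.13 and 4.25 CPM in the neural retina. Col4a5 and Col4a6 were highest together in the unnamed Lypd1 and Acta2 cluster, at 197 and 210 CPM and at 77.8 and 79.3 CPM. Below the leading class the partners parted in places, as in RPE-like cells, where Col4a5 stood at 60.5 and 66.7 CPM and Col4a6 at 6.86 and 10.5 CPM.

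**Figure D3:**
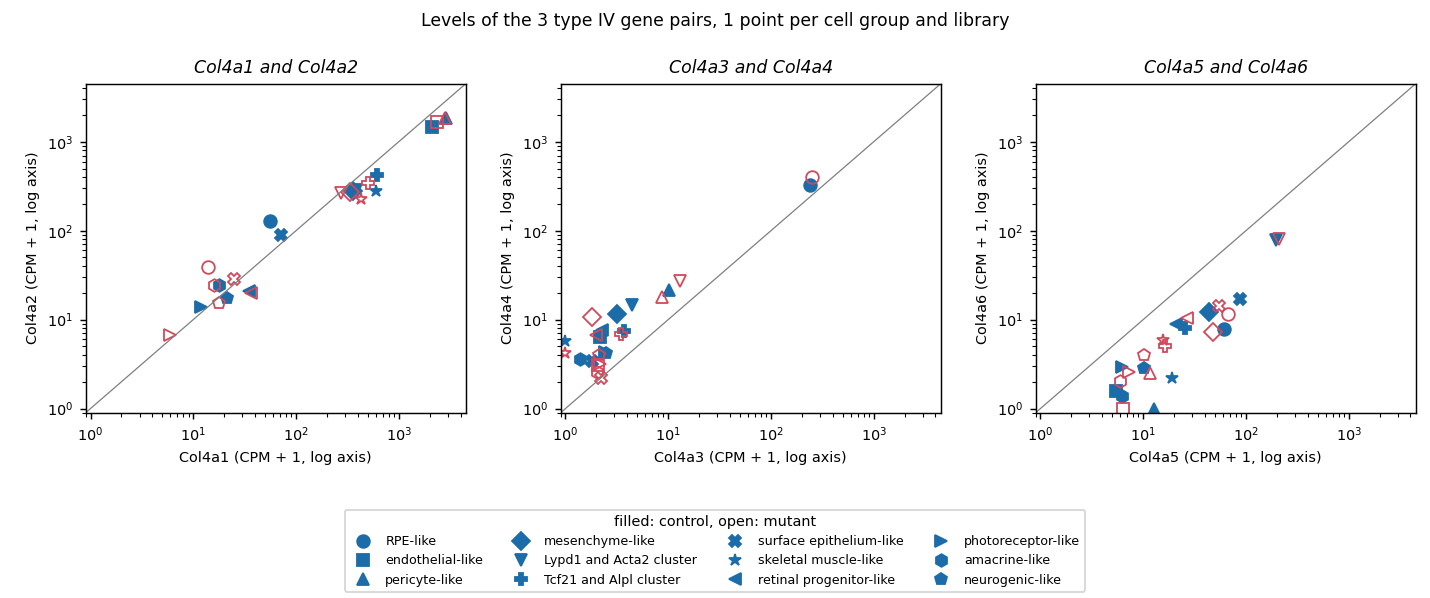
CPM of each type IV gene against that of its head-to-head partner on log10 axes, as CPM with 1 added and with 1 point per cell group, filled for the control and open for the mutant. Vessel classes are at the top of the Col4a1 and Col4a2 panel, RPE-like cells at the top of the Col4a3 and Col4a4 panel and the Lypd1 and Acta2 cluster at the top of the Col4a5 and Col4a6 panel.

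The RPE-like cells, in which Myrf is normally expressed, numbered 486 in the control and 198 in the mutant, with medians of 2466 and 10655 UMIs per cell. Col9a3, a chain of type IX collagen, was their leading member. It stood at 2254 CPM on 7231 UMIs in the control and at 881 CPM on 2089 UMIs in the mutant, a log2 ratio of -1.35 (-1.43 to -1.28), in both libraries above the neural levels of 83.5 and 89.1 CPM. Col18a1 was at 428 and 166 CPM, a log2 ratio of -1.36 (-1.53 to -1.21). Col8a2, known from the sheet beneath the corneal endothelium, was at 376 and 130 CPM, a log2 ratio of -1.53 (-1.72 to -1.35). Neural cells held Col18a1 at 19.5 and 24.2 CPM and Col8a2 at 4.49 and 1.30 CPM. Depth moved with genotype in this class, so the ratios were also taken over cells with at least 8000 UMIs, a setting chosen after the values were seen, where they were -1.41 for Col9a3, -1.40 for Col18a1 and -1.56 for Col8a2.

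The type IV pair of the RPE did not follow them. Col4a4 had a log2 ratio of 0.28 (0.15 to 0.41), with 0.12 in cells with Xist alone and -0.067 in cells with Y-linked transcripts alone, and Col4a3 one of 0.06 (-0.10 to 0.21). Their partner chain Col4a5 stood at 60.5 and 66.7 CPM, a log2 ratio of 0.14 (-0.17 to 0.45). Col4a1 and Col4a2, in contrast, stood at 54.6 and 13.1 CPM, on 175 and 31 UMIs, and at 126 and 38.4 CPM, on 405 and 91 UMIs. Their log2 ratios were -1.98 (-2.66 to -1.50) and -1.69 (-2.06 to -1.39). The mutant level of Col4a1 lay below its neural level given above. The part of free RNA in the levels of both genes was not tested. In these counts the general and the specialised sheet genes moved apart. Col11a1, which partners type II and V fibrils, stood at 84.2 and 114 CPM, a log2 ratio of 0.43 (0.19 to 0.69), against 52.9 and 14.0 CPM in the neural retina. After thinning to 1000 UMIs its ratio was -0.88, which reverses the direction.

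In all, 21 of 26 members measured in RPE-like cells were at least 2-fold lower in the mutant, against 5.15% of all genes measured there, and 0 were higher, against 2.52%. The median log2 ratio was -1.84 for the members and -0.01 for all genes. Of the 21, 11 were also at least 2-fold lower in the neural retina, where 0.694% of all genes were so. Among these were Col1a1, at 1088 and 42.6 CPM, Col3a1, at 278 and 24.9 CPM, Col5a1, at 78.9 and 16.0 CPM, and Col12a1, at 52.7 and 0.844 CPM. The other 10 were Col2a1, Col4a1, Col4a2, Col6a1, Col9a1, Col9a2, Col9a3, Col16a1, Col18a1 and Col23a1. The same overlap over all genes is not given here, so the split is not read as particular to collagen genes. Of these 10, Col2a1, at 21.8 and 9.28 CPM, and Col23a1, at 17.8 and 4.64 CPM, stood below their neural levels in both libraries. Col9a1, at 147 and 24.1 CPM, stood near its neural level in the control and below it in the mutant. Control RPE-like cells held 7.18 Col1a1 UMIs per cell and control neural cells 2.83. In the mutant the RPE-like value, 0.510 UMIs, was close to the neural 0.475. Of the 19 marker lists of other cell types, 14 were lower and 5 higher in the mutant RPE-like cells. Summed lens markers stood at 394 and 39.2 CPM, cartilage or tendon markers at 105 and 36.7 CPM, mesenchyme markers at 774 and 658 CPM, pericyte markers at 267 and 382 CPM and retinal progenitor markers at 1439 and 1754 CPM. Their part in the difference was not tested. Col1a2 was an exception among the mutant RPE-like cells: at 774 and 161 CPM it had a log2 ratio of -2.26 (-2.43 to -2.11), so that Col1a1 stood to Col1a2 at 1.41 in the control and 0.265 (0.211 to 0.331) in the mutant. The next lowest ratio in the mutant was 0.451, in skeletal muscle-like cells. With the photoreceptor-like level subtracted as free RNA, the log2 ratio of Col5a1 in RPE-like cells was 0.98, which reverses its direction. For Col1a2, Col5a2 and Col6a2 the subtraction left nothing in the control. Their values of 6.10, 3.24 and 2.48 therefore rest on the 1 CPM added and are not measured ratios.

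The other type IX genes were lower too. Col9a1 stood at 147 and 24.1 CPM, a log2 ratio of -2.56 (-3.03 to -2.21), and Col9a2 at 58.0 and 5.91 CPM, on 186 and 14 UMIs. Col9a1 was found in 16.5% of control and 8.08% of mutant RPE-like cells, and it parted by the sex of the cells, as read from their transcripts. Its log2 ratio was 1.20 over the 81 control and 78 mutant RPE-like cells with Xist alone and -4.98 over the 125 and 35 cells with Y-linked transcripts alone. The lower level of Col9a1 was therefore seen in the second kind of cell and not in the first, and with cells over 5% mitochondrial UMIs left out the ratio was -0.58. Col8a2, with -1.53 and -1.77, and Col18a1, with -1.42 and -1.31, had the same direction in both. Neural retina held Col9a1 at 151 and 212 CPM, which is as high as the control RPE-like level and above the mutant one.

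**Figure D4:**
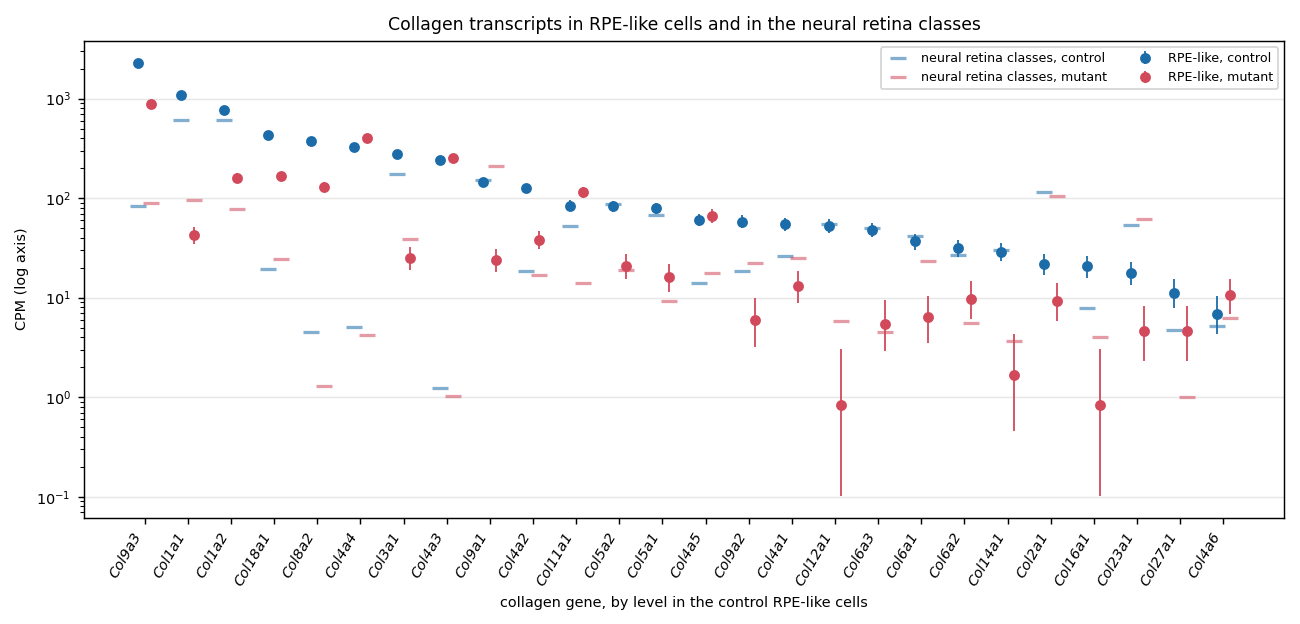
CPM of the 26 measured collagen genes in RPE-like cells, as points with 95% counting intervals, and in the neural retina classes, as dashes, in the control and mutant libraries on a log axis. Col9a3, Col18a1 and Col8a2 lie above the neural dashes and are lower in the mutant, Col4a3, Col4a4, Col4a5 and Col11a1 lie level or higher in the mutant, and Col1a1 and Col3a1 lie below the neural dash in the mutant.

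Surface epithelium-like cells, 134 and 66 in number, held the anchoring genes at like levels over the class in both libraries. The class joins a cluster led by Krt14, with 100 and 36 cells, and one led by Krt13, with 34 and 30 cells, so its makeup differed between libraries. Col17a1, the collagen of hemidesmosomes, stood at 457 and 493 CPM, a log2 ratio of 0.11 (-0.08 to 0.29). It was at 605 and 863 CPM in the Krt14 cluster and 233 and 201 CPM in the Krt13 cluster. Col7a1, which forms the anchoring fibrils beneath, stood at 110 and 107 CPM, a log2 ratio of -0.05 (-0.45 to 0.34). Both lie at the junction of epithelium and stroma, and neither interval was apart from equal levels. Col14a1 was lower, at 268 and 168 CPM, and Col4a5 at 87.3 and 54.0 CPM. Of 22 members measured, 15 were at least 2-fold lower in the mutant, against 4.32% of genes, and 0 were higher, against 2.17%. Col1a1 led them, at 1979 and 27.6 CPM. Col6a3 and Col6a2 stood at 123 and 64.1 CPM in the control and had no UMI in the mutant, where they were at least 34.3-fold and at least 17.8-fold lower by a floor of 3 counts over the class. Of 19 marker lists of other cell types, 16 were lower in the mutant class, such as red blood at 12173 and 82.7 CPM and mesenchyme at 1031 and 252 CPM. The other 3 were higher, retinal progenitor at 1083 and 1325 CPM, pericyte at 268 and 361 CPM and glia at 161 and 242 CPM. Their part in the difference was not tested.

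Other collagens of the neural retina did not have the lower mutant level of the type I and III genes. Col9a1 stood at 151 and 212 CPM over the neural classes, a log2 ratio of 0.48 (0.43 to 0.54), Col2a1 at 114 and 106 CPM and Col9a3 at 83.5 and 89.1 CPM. By sex-linked transcripts the ratio of Col9a1 was -0.093 in cells with Xist alone and 0.54 in cells with Y-linked transcripts alone, and that of Col2a1 was 0.34 and -0.32, so neither had 1 direction in both. Type II and IX collagen are the fibrils of the vitreous. The membrane-spanning Col23a1 stood at 53.6 and 61.5 CPM, a log2 ratio of 0.20 (0.10 to 0.30). The 13 members at least 2-fold lower in the mutant neural retina were Col1a1, Col1a2, Col3a1, Col5a1, Col5a2, Col11a1, Col24a1, Col27a1, Col12a1, Col14a1, Col6a2, Col6a3 and Col8a2. None of the 38 was at least 2-fold higher, 0 against 0.0673% of genes. Col9a1, Col2a1, Col9a3 and Col23a1 stood highest in retinal progenitor-like cells among the neural classes. There Col9a1 was at 243 and 355 CPM, against 25.2 and 16.0 CPM in photoreceptor-like cells, and Col2a1 at 176 and 164 CPM, against 8.88 and 12.8 CPM. Col23a1 was at 86.1 and 100 CPM, against 2.64 and 3.55 CPM. The part of free RNA in these levels was not tested.

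A neural class was said to lead for a member where its level lay above each of the other 3 with a counting interval apart from equal levels in both libraries. Progenitor-like cells led for 10 of 26 members, against 11.8% of genes. They were Col2a1, the 3 type IX genes, Col18a1, Col23a1, Col4a1, Col4a4, Col4a5 and Col4a6. Amacrine-like cells led for 2 of 22, against 12.1%: Col6a1 at 60.8 and 58.2 CPM and Col26a1 at 8.69 and 7.30 CPM. Photoreceptor-like cells led for 6 of 22, against 17.1%. They included Col17a1, at 12.0 and 10.6 CPM, and Col16a1, at 18.2 and 15.2 CPM. The other 4 were Col1a1, Col1a2, Col3a1 and Col14a1, and the Col1a1 UMIs per cell given above were nearly equal in control photoreceptor-like and progenitor-like cells. Neurogenic-like cells led for 0, against 3.30%.

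**Figure D5:**
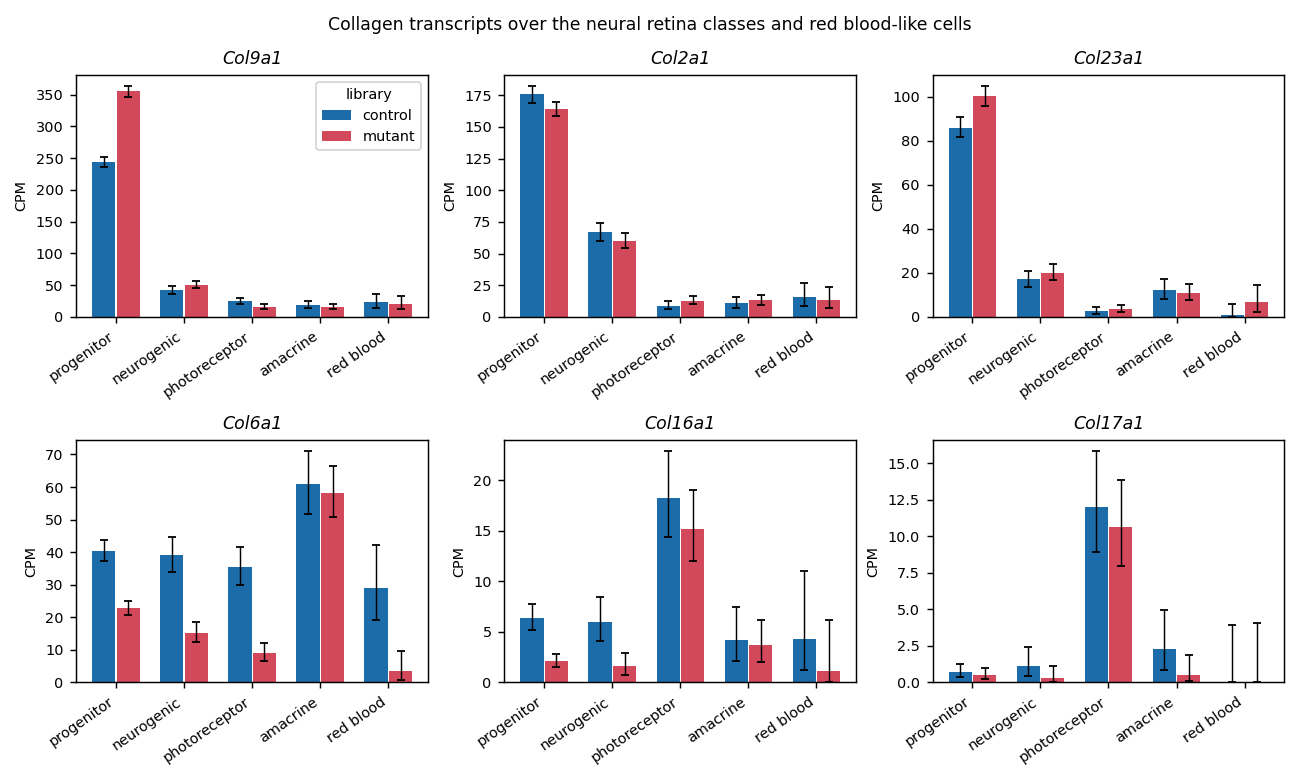
CPM of Col9a1, Col2a1, Col23a1, Col6a1, Col16a1 and Col17a1 in the 4 neural retina classes and in red blood-like cells, as bars for each library with 95% counting intervals. The upper genes stand highest in progenitor-like cells, Col6a1 in amacrine-like and Col16a1 and Col17a1 in photoreceptor-like cells, in both libraries.

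Several members were also found in smaller classes. Skeletal muscle-like cells had Col26a1 at 110 and 131 CPM and Col15a1 at 296 and 209 CPM. Glia-like cells, of which there were 21 and 20, held Col20a1 at 503 and 306 CPM and Col18a1 at 1102 and 1076 CPM. The 31 and 33 astrocyte-like cells held Col2a1 at 557 and 516 CPM and Col9a1 at 368 and 548 CPM. Cartilage or tendon-like cells, 85 and 42, had Col11a2, a cartilage fibril gene, at 716 and 664 CPM and Col22a1, a gene of the muscle and tendon junction, at 68.6 and 101 CPM. Col19a1, Col20a1, Col25a1, Col28a1, Col6a4 and Col6a5 reached 20 CPM in no class of 50 cells. By family, all 11 fibril-forming, all 6 basement membrane, both hexagonal network and both multiplexin members reached that level, as did 7 of 9 fibril-associated, 4 of 6 beaded filament and 3 of 4 membrane-spanning members. Of the 43 genes, 15 overlap another gene on the same strand, so that some of their UMIs may belong to the neighbour.

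The machinery that folds, trims, crosslinks, binds and breaks down collagen was read from a list of 46 genes. In mesenchyme-like cells 40 were measured. Of these, 0 were at least 2-fold lower and 0 higher in the mutant, against 0.734% and 0.350% of all genes, and 28 stood at least 4-fold above the neural retina in both libraries, against 8.94% in the control and 8.48% in the mutant. Serpinh1, the chaperone of collagen, stood at 1377 and 1683 CPM, Pcolce, which aids the trimming of fibril ends, at 733 and 865 CPM, and the crosslinking enzyme gene Lox at 544 and 544 CPM. In RPE-like cells 35 were measured, of which 1, the collagen receptor Mrc2, was at least 2-fold lower, against 5.15% of all genes, and 2 were higher, against 2.52%. The higher ones were the prolyl hydroxylase genes P4ha3, at 2.18 and 12.7 CPM, and P3h2, at 1.56 and 8.86 CPM. Serpinh1 stood at 370 and 481 CPM there and Loxl1 at 109 and 137 CPM. The median log2 ratio was 0.22 for the list and -1.84 for the collagen genes. In surface epithelium-like cells 6 of 23 measured genes of the list were at least 2-fold lower, against 4.32% of genes, and 0 were higher, against 2.17%, with a median log2 ratio of -0.40.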

How the data were processed

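Single-cell suspensions of pooled eye cups were sequenced as 3′ libraries on the 10x platform, 1 per genotype. The deposited matrices hold UMI counts per gene and cell, made by the authors on the mm10 build of the mouse genome. The submitters' processing notes name Cell Ranger 7.1.0 and Seurat 4.1.1, while the matrix header gives software version 3.1.0. The libraries summed to 79017429 control and 76272867 mutant UMIs.

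Cells with at least 200 genes and at most 15% mitochondrial UMIs were kept. Doublets were scored with Scrublet in scanpy 1.11.5. Its default cut called 0% of control barcodes and 5.46% of mutant barcodes, so that the barcodes of highest score were removed instead at the rate of 0.8% per 1000 cells, 1646 (11.4%) and 1214 (9.78%). Libraries were integrated and clustered with Seurat 5.3.0 in R 4.3.3 (2000 variable genes, 30 components, resolution 1), leaving 117 genes out, among them all members, so that 1925 were used. A cluster was named where at least 3 markers of a list reached 10% of its cells and 2-fold over the rest, and the 4 neural retina classes were also summed. UMIs were summed per class and library and divided by the class total to give CPM. Ratios are log2 of mutant over control with 1 CPM added. Intervals are exact Poisson, conditional Poisson or Clopper-Pearson at 95%, belong to the plain ratio without the added CPM, and cover counting error only. A gene counted as measured with 20 UMIs in both libraries together, and a class was compared with at least 50 cells in each. For shares of cells with a UMI, cells were thinned to 1000 UMIs, and shallower cells were left out, 59 control and 36 mutant ones among neural cells. No test was run, since each group was 1 pool of 3 eye cups. Scripts were tested on simulated counts.

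Named with values were members at 20 CPM or more in a class of 50 cells, and for genotype those at 2-fold or at 100 CPM. A few members of smaller classes and of neural cells were named after their values were seen. The members, the families, the marker lists and the list of collagen machinery were chosen with earlier results of these data known.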

Additional observations from a re-analysis of the deposited data

Results flagged for a closer look

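Of the 3 type IX genes, Col9a1 and Col9a3 stood higher in the mutant mesenchyme and lower in the mutant pigment epithelium. Col9a1 had a log2 ratio of mutant over control of 0.93 in mesenchyme-like cells and of -2.56 in RPE-like cells. Col9a3 had 0.76 and -1.35. The single library of each genotype lay on opposite sides of equal levels in these classes, and the difference was not tested. For Col9a1 the direction in RPE-like cells depended on the sex-linked transcripts of the cells, as given above. The mesenchyme-like values come from a class whose makeup shifted towards the Kera and Aldh3a1 cluster. Within that cluster they were 0.53 and 0.39, and -0.19 for Col9a3 after thinning to 1000 UMIs.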

How the results depend on the processing

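No paired analysis was possible because each genotype had 1 library. Over 113 ratios of single members, 1644 values were computed under other settings: 1211 stayed within the counting interval, 405 moved outside it and 28 reversed. The summed ratios of the main classes, with the log2 values 0.28 for mesenchyme-like, -0.13 for pericyte-like, -0.22 for endothelial-like, -1.49 for RPE-like, -2.41 for surface epithelium-like cells and -1.39 for the neural retina, kept their direction except in pericyte-like and endothelial-like cells.

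With cells carrying Xist alone the summed ratios were 0.40 in mesenchyme-like, 0.18 in pericyte-like, which is a reversal, -1.19 in RPE-like and -3.83 in surface epithelium-like cells and -1.65 in the neural retina, and -0.20 in endothelial-like cells. With Y-linked transcripts alone they were 0.15, -0.58 in pericyte-like, -0.040 in endothelial-like, -1.77 in RPE-like and -1.27 in neural cells. No value was computed for surface epithelium-like cells with Y-linked transcripts alone. With the level in photoreceptor-like cells subtracted as free RNA they were 0.32 in mesenchyme-like, 0.17 in pericyte-like and 0.16 in endothelial-like, both reversals, -1.04 in RPE-like and -1.86 in surface epithelium-like cells. With cells thinned to 1000 UMIs they were 0.34, -0.036 in pericyte-like, -0.51 in endothelial-like, -1.89 in RPE-like, -2.63 in surface epithelium-like and -1.54 in neural cells, and as a mean over cells 0.33, -0.052, -0.55, -2.03 and, in neural cells, -1.53. With barcodes over 2000 UMIs left out, a doublet limit that the study states and that 80.2% of control and 92.1% of mutant barcodes exceed, they were -0.68 in endothelial-like, -2.51 in RPE-like and -1.98 in neural cells. The members at least 4-fold above neural retina in mesenchyme-like cells were then 12 and not 24 in the control and 5 and not 23 in the mutant. The members measured and the share of all genes at that setting are not given here. The next 2 settings were chosen after seeing the data. With at least 8000 UMIs the ratios were 0.26 in mesenchyme-like, -0.094 in endothelial-like, -1.36 in RPE-like and -0.86 in neural cells, and leaving out shared barcodes moved none. With doublets kept they were 0.34, -0.31 in endothelial-like, -0.54 in surface epithelium-like and -1.41 in neural cells. A 5% mitochondrial limit gave 0.30, -1.68 in RPE-like, -2.64 in surface epithelium-like and -1.34 in neural cells, and centring on the median gene gave 0.30 and, in neural cells, -1.43. In mesenchyme-like cells no integration gave 0.24 and resolution 0.5 gave 0.25. The cause was not tested.

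Single members reversed as follows. With Xist alone the log2 ratio was 0.032 for Col4a1 in mesenchyme-like, 1.20 for Col9a1 in RPE-like, and -0.093 for Col9a1 and 0.34 for Col2a1 in neural cells. With Y-linked transcripts alone it was -0.30 for Col6a3 in pericyte-like, 0.013 for Col18a1 in endothelial-like and -0.067 for Col4a4 in RPE-like cells. With at least 8000 UMIs Col9a1 had 0.12 in surface epithelium-like cells. With at most 2000 UMIs Col18a1 had 0.94 in endothelial-like, Col11a1 -1.18 in RPE-like and Col2a1 0.79 in neural cells. Col11a1 in RPE-like cells had -0.48 as a mean over cells and -0.88 when thinned. Thinning also gave -0.37 for Col27a1, 0.0018 for Col4a1 and -0.087 for Col7a1 in mesenchyme-like cells and -0.19 for Col9a3 in the Kera and Aldh3a1 cluster. Resolution 0.5 gave 0.064 for Col11a1 in pericyte-like cells. Subtraction of free RNA gave 0.24 for Col5a2, 0.73 for Col1a2 and 2.93 for Col1a1 in pericyte-like cells. It gave 1.26 for Col5a2 in endothelial-like and 0.98 for Col5a1 in RPE-like cells. It left nothing in the control for Col11a1 in pericyte-like, Col5a1 in endothelial-like, and Col5a2, Col1a2 and Col6a2 in RPE-like cells. Their values, in that order 3.87, 4.02, 3.24, 6.10 and 2.48, rest on the 1 CPM added and are not measured ratios. They are counted among the 28 reversals.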
